A study of Mus musculus with 16 samples.

Results

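The p53 pathway was followed through 10 of the 30214 gene names with a probe on the array. These were Trp53, which encodes the transcription factor p53, and 9 genes that p53 is known to activate directly (Mdm2, Cdkn1a, Ccng1, Bax, Bbc3, Pmaip1, Trp53inp1, Sesn1 and Gdf15). They were taken by gene name, as a readout of nucleolar or ribosomal stress after depletion of eIF6, with earlier results of these data known. The 10 genes had 13 of the 39429 different probes. All 13 probes were well above background on all 16 arrays by the flag of the scanner software, so all 10 genes were among the 19365 genes tested.

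The samples were RNA from AML12 cells, a non-tumourigenic line of mouse hepatocytes. All cells carried a lentiviral shRNA that doxycycline switches on, either a scramble control or an shRNA against eIF6, and all received doxycycline and then insulin for 1 h. The insulin is written as 100 nM in the sample descriptions and the methods, and in millimolar in the treatment field. Sucrose gradients separated polysomal RNA, bound by several ribosomes, from subpolysomal RNA, and each RNA was hybridised on a one-colour Agilent array. This gave 4 groups of 4 arrays (scramble or eIF6 shRNA, polysomal or subpolysomal), from biological quadruplicates by the methods, and cells without doxycycline or without insulin were not analysed here. Gradient fractions were pooled into the 2 RNA samples, the infected cells were a mixed population, and in such bulk RNA fewer cells of a type and less RNA per cell cannot be told apart.

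eIF6 binds the large ribosomal subunit and is needed both for making that subunit and for keeping it apart from the small one. When the making of ribosomes is disturbed, free ribosomal proteins such as Rpl5 and Rpl11 bind Mdm2, the ubiquitin ligase that marks p53 for degradation, and p53 protein accumulates. p53 then raises the transcription of genes that stop the cell cycle, start apoptosis or change metabolism, and of Mdm2 itself, which closes a negative loop. These steps act on p53 protein, whereas the arrays measured RNA only.

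The sequences that p53 recognises are shown first, because p53 acts on its targets by binding them. A p53 site is a pair of half-sites of 10 bases, separated by at most 13 bases, and the half-site reads the same on both strands. The RefSeq windows (GRCm38.p6) shown here covered 13 transcription starts of 8 of the 10 genes, and the 250 bases before each start were searched. Trp53inp1 and Pmaip1 are named without a window. A full site without mismatch lay before 1 of the 2 starts of Cdkn1a, and such a site was present in 0.0639% of all 32851 windows of this length. With 1 mismatch a full site was found before Ccng1 and Bax (0.898% of all windows held one with at most 1 mismatch), while Mdm2, Trp53 and 1 start of Sesn1 held a half-site but no such full site, where 7.13% of all windows held a half-site without mismatch. Of the 13 windows 6 held a half-site. None lay before the other starts of Cdkn1a and Sesn1 or any start of Bbc3 and Gdf15. Bases after the start were not searched. A match is a description of letters and not evidence of binding, and binding was not measured. The windows of Cdkn1a (chr17:29090729-29090978, plus strand), Ccng1 (chr11:40755287-40755536, minus strand), Bax (chr7:45466899-45467148, minus strand) and Mdm2 (chr10:117710759-117711008, minus strand) are given 5′ to 3′, with the half-sites in capitals, including in Ccng1 and Bax the one with the mismatch. The marked pairs are those with the fewest mismatches. In Cdkn1a this pair started 73 bases before the start of transcription, in Ccng1 195 bases and in Bax 212 bases, and the half-site of Mdm2 started 186 bases before it. The half-site of Cdkn1a that starts at 51 bases is followed, without a gap, by 10 bases that match with 1 mismatch. A full site with 1 mismatch thus also starts 51 bases before transcription in Cdkn1a, and its second part was left in small letters.
Cdkn1a: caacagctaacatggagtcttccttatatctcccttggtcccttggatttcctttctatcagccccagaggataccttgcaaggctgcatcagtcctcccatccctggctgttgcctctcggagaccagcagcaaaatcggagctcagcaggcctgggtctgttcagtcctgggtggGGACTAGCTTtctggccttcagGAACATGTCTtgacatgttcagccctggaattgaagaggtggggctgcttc
Ccng1: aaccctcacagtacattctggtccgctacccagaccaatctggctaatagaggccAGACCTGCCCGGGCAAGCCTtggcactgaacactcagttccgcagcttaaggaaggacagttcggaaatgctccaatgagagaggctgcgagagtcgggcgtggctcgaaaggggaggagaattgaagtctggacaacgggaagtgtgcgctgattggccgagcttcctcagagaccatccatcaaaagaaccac
Bax: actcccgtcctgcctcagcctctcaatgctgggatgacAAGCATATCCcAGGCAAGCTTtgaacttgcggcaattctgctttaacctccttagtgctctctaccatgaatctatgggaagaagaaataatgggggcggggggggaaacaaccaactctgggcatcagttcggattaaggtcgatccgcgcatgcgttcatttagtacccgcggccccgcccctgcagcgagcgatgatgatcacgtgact
Mdm2: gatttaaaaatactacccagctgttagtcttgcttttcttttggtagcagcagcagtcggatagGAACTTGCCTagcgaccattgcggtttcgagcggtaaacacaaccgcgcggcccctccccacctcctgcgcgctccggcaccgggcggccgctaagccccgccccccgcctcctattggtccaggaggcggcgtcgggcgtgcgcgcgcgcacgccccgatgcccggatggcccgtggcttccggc

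Between 20177 and 24953 probes per array were well above background, and no spot was saturated. Intensities were set to a common distribution over the 16 arrays (quantile normalization), so each value is a log2 intensity relative to all other genes on the array, with precision set by the number of arrays. Groups were compared with limma, p-values received the Benjamini-Hochberg adjustment across the 19365 genes, and called means an adjusted p under 0.05. The log2 level of Eif6 was 12.95 ± 0.011 (SD, n = 4) in polysomal RNA of scramble cells and 11.89 ± 0.084 (SD, n = 4) with eIF6 shRNA (change -1.05, adjusted p = 1.45e-07 by limma). In subpolysomal RNA it was 11.60 ± 0.065 and 11.61 ± 0.14 (SD, n = 4 each), a change of 0.015 with a 95% interval from -0.15 to 0.18, so that Eif6 bore out the labels in polysomal RNA only. Of 12 hepatocyte markers 9 were well above background on all arrays, whereas albumin (Alb) was on 7 arrays, Asgr1 on 5 and Apoa1 on 2.

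On polysomes, 5 of the 10 genes were higher with eIF6 shRNA (Trp53inp1, Pmaip1, Gdf15, Cdkn1a and Ccng1) and 1 was lower (Mdm2). Among all genes tested, 11.1% were called higher and 10.7% lower in this comparison. In subpolysomal RNA 4 were higher (Trp53inp1, Pmaip1, Gdf15 and Cdkn1a) and Mdm2 was again the 1 gene that was lower, where the shares of all genes were 11.9% higher and 12.4% lower. With the brightest probe of each gene, Cdkn1a was not called, which left 4 genes higher on polysomes and 3 in subpolysomes. Of all 19365 genes, 2191 and 2371 were called higher by that rule. The scramble and eIF6 shRNA arrays did not overlap for 5 of the 10 genes on polysomes and 6 in subpolysomes. Among all genes this held for 22.4% and 31.6%, so separate groups are common here. These counts are relative to the other genes. With 7 spike-in probes as the scale instead (mean log2 signal 12.12 to 13.63 per array), the median of all genes moved to -0.47 on polysomes and -0.23 in subpolysomes, none of the 10 genes passed the test in either fraction, and the polysomal change of Ccng1 turned to -0.066. The spike-in mean ran from 12.12 to 13.54 within scramble polysomes and from 12.57 to 13.63 within eIF6 shRNA polysomes. The part of this spread in the lost calls was not tested. Relative to the median of all genes on the spike-in scale, the median of the 10 genes was 0.41 on polysomes and 0.20 in subpolysomes. On that scale only 1056 of all 19365 genes were called lower and 101 higher on polysomes, and 345 and 43 in subpolysomes. The median change of the 10 genes was 0.39 on polysomes, against 0.016 for all genes, and 0.17 in subpolysomes, against 0.025.

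**Figure D1:**
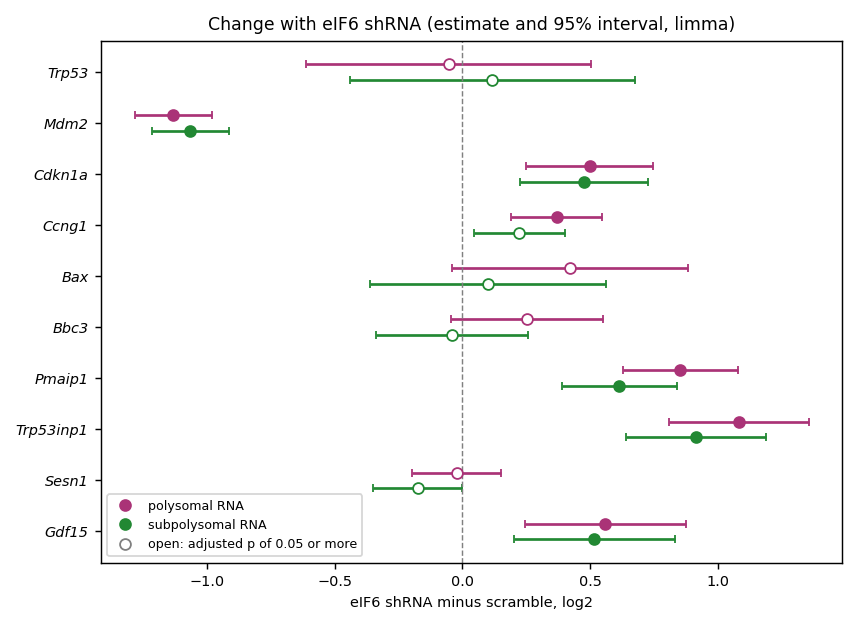
Change with eIF6 shRNA (eIF6 shRNA minus scramble, log2) of each gene in polysomal and subpolysomal RNA, with the 95% interval from limma and filled points where the adjusted p was under 0.05. Mdm2 lies near -1.1 in both fractions and Trp53inp1 and Pmaip1 lie above 0.6 in both, relative to all genes, while with spike-in scaling no point is filled and Ccng1, Bax and Bbc3 on polysomes and Trp53 and Bax in subpolysomes change sign. On that scale 1056 of all 19365 genes are called lower and 101 higher on polysomes, and 345 and 43 in subpolysomes.

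Trp53 itself did not pass the test in either fraction. Its probe, listed for transcript NM_011640 (chr11:69404204-69404263 of mm9, plus strand, the build of all probe positions), is shown because the level of p53 mRNA rests on these bases alone.
Trp53 probe: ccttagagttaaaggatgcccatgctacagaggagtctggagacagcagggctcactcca
In polysomal RNA the log2 level was 9.51, 9.38, 8.79 and 9.97 in the 4 scramble replicates and 8.78, 9.33, 9.23 and 10.08 with eIF6 shRNA. In subpolysomal RNA it was 8.79, 8.87, 8.87 and 8.43 with scramble and 9.14, 8.60, 8.86 and 8.83 with eIF6 shRNA. The groups overlapped in both fractions, and replicate 4 was the highest of both polysomal groups. The polysomal change was -0.054 (95% interval -0.61 to 0.50, adjusted p = 0.925 by limma) and the subpolysomal change 0.12 (-0.44 to 0.67, adjusted p = 0.796). These intervals are the widest of the 10 genes, with a standard error of 0.26, and leaving out replicate 4 of scramble or replicate 1 of eIF6 shRNA turned the polysomal change to 0.13 and 0.14.

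Mdm2, the ligase that degrades p53 and a p53 target in its own right, was the only one of the 10 genes that was called lower in either fraction. It was measured by a single probe (chr10:117126010-117126069, minus strand, NM_010786). In polysomal RNA the log2 level was 17.80, 17.85, 17.78 and 17.63 in scramble cells and 16.69, 16.58, 16.67 and 16.61 in eIF6 shRNA cells. In subpolysomal RNA it was 17.51, 17.55, 17.52 and 17.48 against 16.40, 16.35, 16.53 and 16.51. Every eIF6 shRNA array lay below every scramble array in both fractions, and the replicates of a group lay close together. Mdm2 thus fell by 1.13 (SE 0.071, adjusted p = 2.26e-08 by limma) on polysomes, to 45.7% of the scramble level, and by 1.07 (adjusted p = 7.93e-08) in subpolysomes, to 47.8%. Leaving out any 1 array kept the polysomal change from -1.18 to -1.10. The size depended on the scaling, and the level of Mdm2 on scramble polysomes lay at percentile 99.4 of all genes. With scaling to the 75th percentile the polysomal change was -0.83 (adjusted p = 8.21e-05 by limma). On the scale of the spike-in probes it was -1.30, or -0.83 relative to the median of all genes, without passing the test (adjusted p = 0.130).

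Cdkn1a encodes p21, the inhibitor of cyclin-dependent kinases through which p53 halts the cell cycle, and it was measured by 3 probes. As the mean of the 3 probes, its log2 level on polysomes was 9.34, 9.34, 9.61 and 9.22 in scramble cells and 9.99, 10.05, 9.87 and 9.59 in eIF6 shRNA cells. In subpolysomes it was 10.41, 10.40, 10.55 and 10.78 against 11.00, 11.04, 11.01 and 10.98. The groups overlapped on polysomes, where eIF6 shRNA replicate 4 lay just below scramble replicate 3, and were separate in subpolysomes. The change was 0.50 (SE 0.12, adjusted p = 0.00565 by limma) on polysomes and 0.48 (adjusted p = 0.00779) in subpolysomes.

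The probes of Cdkn1a were also tested singly, over all probes kept. Probe A_51_P363947, printed in 10 spots (chr17:29237377-29237436, NM_007669), had a log2 level of 14.65, 14.57, 14.59 and 14.71 on scramble polysomes and 14.78, 15.01, 14.70 and 14.71 with eIF6 shRNA. These groups overlapped, and the probe changed by 0.17 on polysomes (adjusted p = 0.177) and 0.14 in subpolysomes (adjusted p = 0.251), so that Cdkn1a was not called in either fraction when this probe, the brightest by mean signal, stood for the gene. Probe A_55_P1986282 (chr17:29227986-29228045), listed for transcript variant 2 (NM_001111099), rose by 0.74 on polysomes (adjusted p = 0.00119) and 0.63 in subpolysomes (adjusted p = 0.00413). On polysomes it read 6.87, 6.94, 7.01 and 6.54 with scramble and 7.75, 7.77, 7.61 and 7.18 with eIF6 shRNA, without overlap.

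The third probe, A_55_P1976204 (chr17:29235299-29235358, plus strand, ENSMUST00000122348), stood apart by fraction. Its bases are shown because they run without a gap over 60 positions of mm9 and hold the letters ATG (in capitals) from base 55. No annotation of exons was used here.
Cdkn1a probe A_55_P1976204: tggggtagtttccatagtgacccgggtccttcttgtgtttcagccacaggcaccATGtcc
On scramble polysomes this probe read 6.51, 6.51, 7.23 and 6.42, and in scramble subpolysomes 10.12, 10.00, 10.23 and 10.72. Every polysomal value lay below every subpolysomal value, a difference of -3.60 (adjusted p = 1.68e-09 by limma over probes), and it was -3.67 with eIF6 shRNA (adjusted p = 1.67e-09). The other 2 probes differed by 0.15 and -0.018 between fractions in scramble cells (adjusted p = 0.123 and 0.919). With eIF6 shRNA it changed by 0.58 on polysomes (adjusted p = 0.0507) and rose by 0.66 in subpolysomes (adjusted p = 0.0272).

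**Figure D2:**
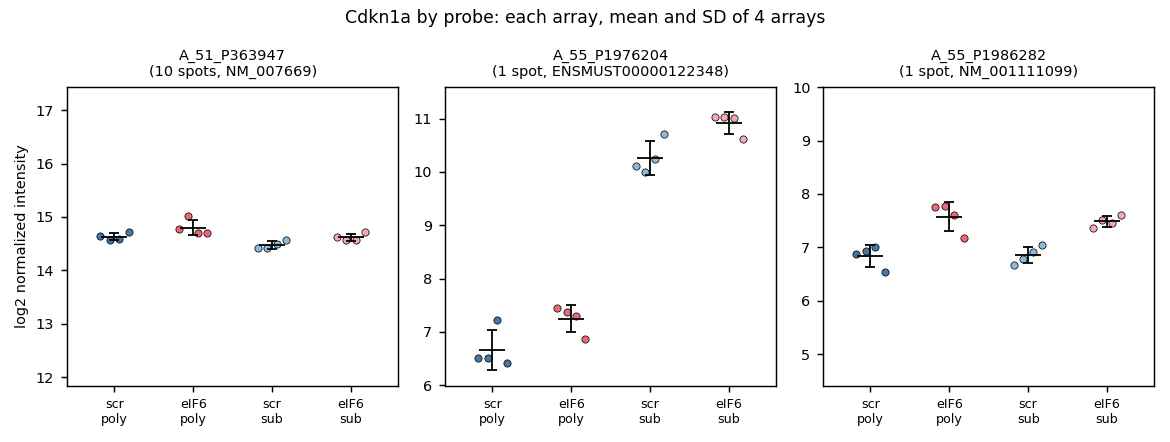
Log2 normalized intensity of the 3 Cdkn1a probes on each array (points) with the mean and SD of 4 arrays, for scramble (scr) and eIF6 shRNA (eIF6) in polysomal (poly) and subpolysomal (sub) RNA, on axes that span the same range. The probe with 10 spots is nearly level over the 4 groups, the probe A_55_P1976204 is about 3.6 units lower on polysomes, and the variant 2 probe is higher with eIF6 shRNA in both fractions.

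Ccng1, cyclin G1, is a p53 target that recruits a phosphatase to Mdm2. Its log2 level on polysomes (chr11:40562427-40562486, NM_009831) was 12.01, 11.94, 11.99 and 11.89 in scramble cells and 12.46, 12.37, 12.38 and 12.10 in eIF6 shRNA cells. All eIF6 shRNA arrays were above all scramble arrays. The change was 0.37 (SE 0.083, adjusted p = 0.00441 by limma), and -0.066 with spike-in scaling, which is 0.41 relative to the median of all genes there. In subpolysomes it was 0.22 (adjusted p = 0.0668), with scramble arrays from 12.87 to 13.01 and eIF6 shRNA arrays from 13.04 to 13.22. The subpolysomal change passed the test with scaling to the 75th percentile (0.29, adjusted p = 0.0427) and with another background correction (0.26, adjusted p = 0.00954).

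Of the 3 genes of the mitochondrial death pathway, only Pmaip1 passed the test. Pmaip1 encodes Noxa, a BH3-only protein that neutralises Mcl1. Its log2 level on polysomes was 12.22, 12.51, 12.44 and 12.03 with scramble and 13.15, 13.09, 13.32 and 13.05 with eIF6 shRNA. In subpolysomes it was 11.90, 11.91, 12.00 and 11.75 against 12.48, 12.49, 12.44 and 12.62. The groups were separate in both fractions. Pmaip1 rose by 0.85 on polysomes (SE 0.11, adjusted p = 2.44e-05 by limma), to 181% of scramble, and by 0.61 in subpolysomes (adjusted p = 0.000613), to 153%.

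Bax, the pore-forming effector of apoptosis (chr7:52717122-52717181, NM_007527), ran from 13.01 to 14.19 on scramble polysomes and from 13.81 to 14.54 with eIF6 shRNA. The groups overlapped, and replicate 4 was the lowest of both. The change was 0.42 (95% interval -0.041 to 0.88, adjusted p = 0.203 by limma) on polysomes and 0.10 (-0.36 to 0.56, adjusted p = 0.789) in subpolysomes. Bbc3, which encodes the BH3-only protein Puma (chr7:16903403-16903462, NM_133234), ran from 12.38 to 12.75 on scramble polysomes and from 12.68 to 13.08 with eIF6 shRNA, also with overlap. It changed by 0.25 (-0.046 to 0.55, adjusted p = 0.244) and -0.040 (-0.34 to 0.26, adjusted p = 0.875). With spike-in scaling the polysomal changes of Bax and Bbc3 were -0.057 and -0.20, also not called.

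Trp53inp1, a nuclear protein that promotes autophagy and apoptosis, had the largest increase of the 10 genes in both fractions. Its log2 level, the mean of 2 probes (chr4:11101174-11101233 and chr4:11092530-11092589, NM_021897), was 8.67, 8.85, 8.99 and 8.46 on scramble polysomes and 9.98, 9.85, 9.90 and 9.57 with eIF6 shRNA. In subpolysomes it was 7.68, 7.78, 8.06 and 7.69 against 8.62, 8.85, 8.64 and 8.74. No eIF6 shRNA array reached down to a scramble array in either fraction. Trp53inp1 rose by 1.08 on polysomes (SE 0.13, adjusted p = 1.50e-05 by limma), to 212% of scramble, and by 0.91 in subpolysomes (adjusted p = 0.000100), to 188%. Singly, the probes rose by 1.05 and 1.12 on polysomes.

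Gdf15, a secreted member of the TGF-beta superfamily that many stresses induce, rose in both fractions (chr8:73153293-73153352, NM_011819). Its log2 level on polysomes was 11.20, 11.29, 11.54 and 10.70 with scramble and 11.99, 11.57, 11.80 and 11.60 with eIF6 shRNA. In subpolysomes it was 12.16, 11.98, 12.18 and 12.24 against 12.68, 12.72, 12.63 and 12.59. The groups were separate in both fractions. The change was 0.56 (SE 0.15, adjusted p = 0.0124 by limma) on polysomes and 0.52 (adjusted p = 0.0190) in subpolysomes, and without scramble subpolysomal replicate 2 the latter was 0.46 and no longer called (adjusted p = 0.0579). Sesn1, a sestrin that restrains growth signalling through mTORC1, was near 8.1 in both polysomal groups (chr10:41628012-41628071, NM_001162908). It changed by -0.023 (95% interval -0.20 to 0.15, adjusted p = 0.900) on polysomes and -0.17 (-0.35 to -0.00086, adjusted p = 0.138) in subpolysomes, where scramble arrays ran from 8.31 to 8.52 and eIF6 shRNA arrays from 8.16 to 8.43.

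**Figure D3:**
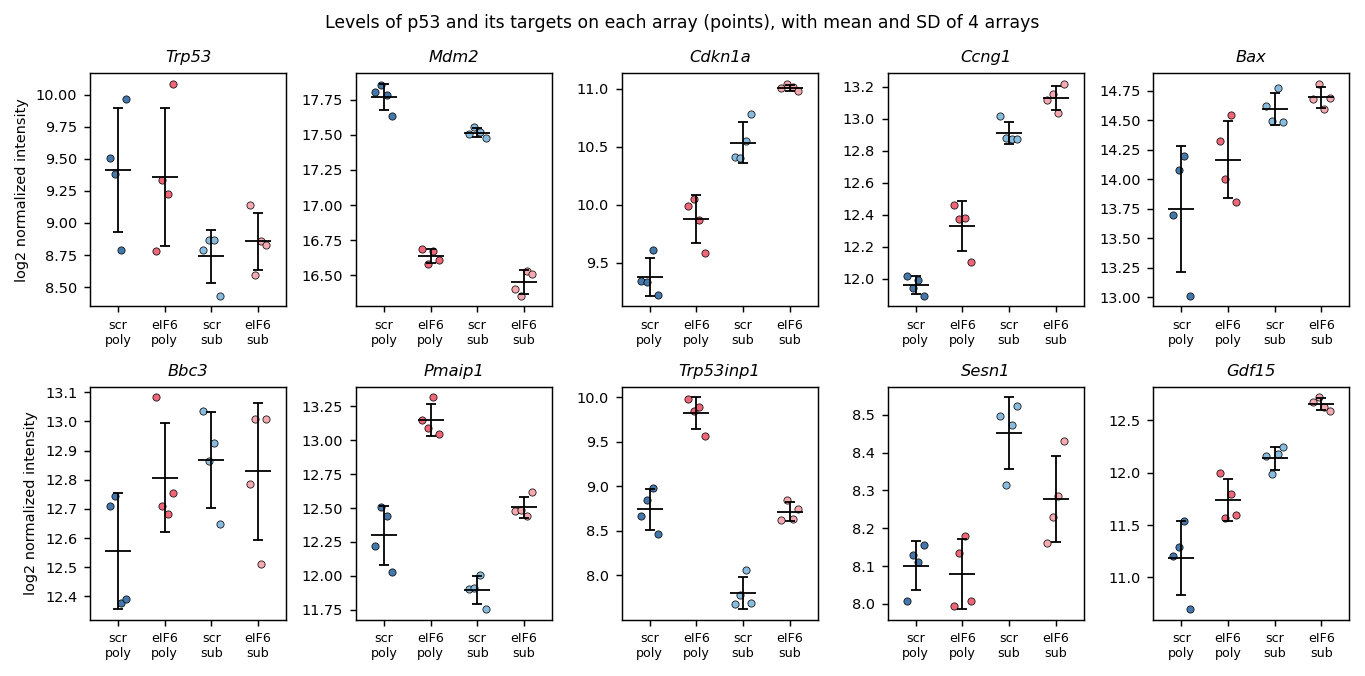
Log2 normalized intensity of the 10 genes on each of the 16 arrays (points), with the mean and SD of 4 arrays per group, for scramble (scr) and eIF6 shRNA (eIF6) in polysomal (poly) and subpolysomal (sub) RNA. Vertical axes differ between genes, the Mdm2 groups are separated by shRNA in both fractions, and Trp53 and Bax spread most on polysomes.

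Translational efficiency was taken as the polysomal change minus the subpolysomal change, which asks whether eIF6 shRNA moved a transcript between fractions beyond its change in both. None of the 10 genes was called in either direction (limma), with 0 at an unadjusted p under 0.05 as well. Over all genes 0.403% were called higher and 1.11% lower. The differences ran from -0.17 for Trp53 (95% interval -0.96 to 0.62) to 0.32 for Bax (-0.33 to 0.97). For Mdm2 the difference was -0.066 (-0.28 to 0.15), the narrowest interval, and for Trp53inp1 it was 0.17 (-0.22 to 0.55). With each fraction normalized on its own, Mdm2 alone was called, at 0.42 (adjusted p = 0.0366), the opposite sign. Of all 19365 genes, 130 were called higher and 341 lower in that setting.

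The 10 genes lay differently between polysomes and subpolysomes, whichever shRNA the cells carried. Relative to all genes, in scramble cells 4 were higher on polysomes (Trp53inp1 0.94, Trp53 0.67, Pmaip1 0.41 and Mdm2 0.25) and 5 were lower (Cdkn1a -1.16, Gdf15 -0.96, Ccng1 -0.95, Bax -0.85 and Sesn1 -0.35). The shares of all genes called were 31.7% higher and 28.4% lower. Bbc3 differed by -0.31 (adjusted p = 0.0660 by limma). In eIF6 shRNA cells 3 were higher (Trp53inp1 1.11, Pmaip1 0.65 and Mdm2 0.19) and 5 lower (Cdkn1a -1.13, Gdf15 -0.91, Ccng1 -0.80, Bax -0.53 and Sesn1 -0.20), against 32.1% and 28.7% of all genes, whereas Trp53 (0.50, adjusted p = 0.110) and Bbc3 (-0.021, adjusted p = 0.907) were not called. With the slide as a block, each slide holding 1 array of each group, Trp53 was called there too (0.50, adjusted p = 0.0230), which made 4 higher. These directions depend on the scale. The spike-in probes put the median of all genes at 1.52 in scramble and 1.30 in eIF6 shRNA cells, and all 10 genes above 0. Relative to that median, Mdm2 was at -0.70 in scramble and -0.57 in eIF6 shRNA cells, the reverse of its sign above. With each array left out in turn, the call of Trp53 in scramble cells was lost in 5 of 8 cases, and in eIF6 shRNA cells the calls of Bax, Sesn1 and Mdm2 were lost in 7, 6 and 4 of 8. The low value of Cdkn1a rests on 1 probe, since its brightest probe differed by 0.15 in scramble cells, and the difference of Mdm2 turned from 0.25 to -0.90 when arrays were scaled to the 75th percentile.

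**Figure D4:**
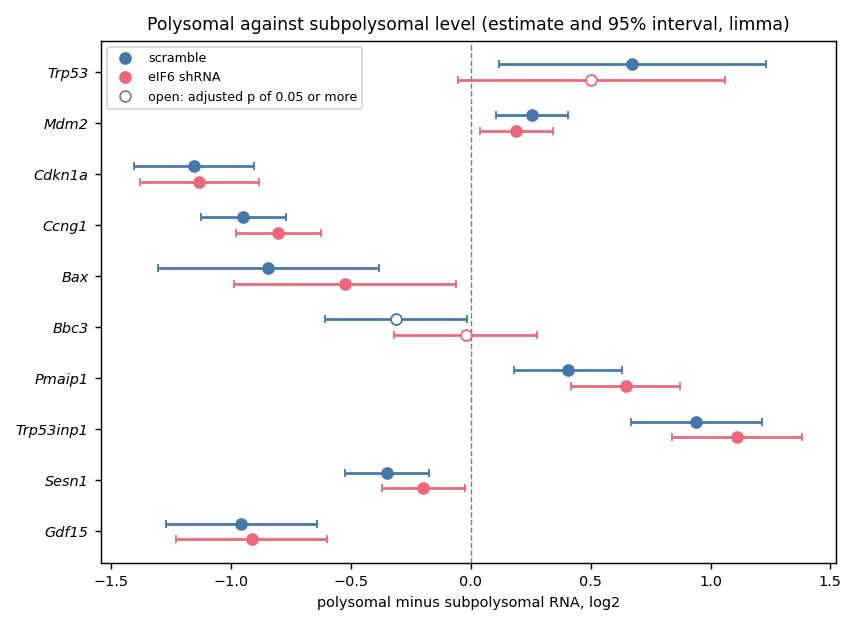
Polysomal minus subpolysomal log2 level of each gene in scramble and in eIF6 shRNA cells, with the 95% interval from limma and filled points where the adjusted p was under 0.05. With quantile normalization, Trp53inp1, Trp53, Pmaip1 and Mdm2 lie right of 0 and Cdkn1a, Gdf15, Ccng1, Bax and Sesn1 left of it in both, whereas with spike-in scaling all 10 lie right of 0. Relative to the median of all genes on the spike-in scale, Mdm2 is at -0.70 in scramble and -0.57 in eIF6 shRNA cells.

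Among 29 tested p53 targets outside the 10 genes, 10 were higher and 2 lower on polysomes of eIF6 shRNA cells, with a median change of 0.18 against 0.016 for all genes. The shares of all genes called there were 11.1% and 10.7%. In subpolysomes 6 were higher and 2 lower, against 11.9% and 12.4% of all genes, with a median of 0.032 against 0.025. With spike-in scaling 101 of all 19365 genes were called higher and 1056 lower on polysomes, and 43 and 345 in subpolysomes. Of the 29, 0 were called higher and 1 lower on polysomes on that scale, and 0 in either direction in subpolysomes (limma). The largest polysomal increases that were measured on all arrays were those of Perp, a desmosomal protein with a role in apoptosis (1.28, adjusted p = 6.41e-07 by limma), the death receptor Fas (0.92, adjusted p = 2.78e-05) and the stress protein Gadd45a (0.61, adjusted p = 0.00503). The 2 lower genes on polysomes were Pltp, a phospholipid transfer protein (-0.55, adjusted p = 0.0471), and Dram1, an autophagy regulator that was not well above background on all arrays and is named after its value was seen (-1.57, adjusted p = 1.92e-05). In subpolysomes Dram1 (-1.39) and Tnfrsf10b (-0.30) were lower, both named after their values were seen, and Perp (1.11), Fas (0.68), Ephx1 (0.58) and Gadd45a (0.52) were the highest of those called. Scaled to the spike-in probes, 23 of the 29 polysomal changes were below 0, and their median was 0.18 above that of all genes.

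Cell cycle genes that p21 is known to hold down lay below 0 on polysomes in 15 of 15 cases, and 6 of them were called lower and none higher, where 10.7% of all genes were called lower. With spike-in scaling 0 of the 15 were called in either fraction (limma). On that scale 1056 of all 19365 genes were called lower on polysomes and 345 in subpolysomes. The median polysomal change of the 15 was -0.33, and with spike-in scaling it was -0.31 relative to the median of all genes. Foxm1, a transcription factor of mitotic genes (-0.74, adjusted p = 0.0129 by limma), and cyclin A2 (Ccna2, -0.66, adjusted p = 0.000262) fell most, followed by Mybl2 (-0.38) and survivin (Birc5, -0.38). In subpolysomes 7 of 15 were lower and none higher, against 12.4% of all genes called lower, Foxm1 again with the largest change (-0.92, adjusted p = 0.00317). None was called in translational efficiency by limma.

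Of 25 tested regulators of p53, 3 were lower and 3 higher on polysomes, shares near those of all genes (10.7% and 11.1%), and 4 were lower and 3 higher in subpolysomes (12.4% and 11.9% of all genes). Cdkn2a, whose Arf product inhibits Mdm2, fell most (-1.17, adjusted p = 4.62e-07 by limma), with Ppp1r13b (-0.37) and Hipk2 (-0.34). Nop53, a nucleolar protein (0.63), Cop1 (0.32) and Kat5 (0.26) were higher, the last pair named after their values were seen. Of the ribosomal proteins that bind Mdm2, Rpl5 changed by 0.19 on polysomes (adjusted p = 0.112) and rose by 0.53 in subpolysomes (adjusted p = 0.000180), and Rpl11 changed by -0.051 and 0.077 (adjusted p = 0.778 and 0.597). Mdm4, the relative of Mdm2 that blocks p53 activity, changed by 0.23 on polysomes (adjusted p = 0.424) and -0.079 in subpolysomes (adjusted p = 0.798).

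In the BCL-2 family, to which the death pathway genes belong, 1 of 11 tested genes was higher on polysomes and 1 lower, where 11.1% and 10.7% of all genes were. In subpolysomes 1 was higher and 2 were lower, against 11.9% and 12.4% of all genes. Bmf, another BH3-only protein, rose by 1.51 (adjusted p = 5.33e-09 by limma) and by 1.22 in subpolysomes, and Bok was lower on polysomes (-0.41) and in subpolysomes (-0.65). Bik, named after its value was seen, was also lower in subpolysomes (-0.76, adjusted p = 0.00759). Among 7 paralogs of the 10 genes, Trp53inp2 rose by 0.84 on polysomes (adjusted p = 1.39e-05) and Sesn3 by 0.52 (adjusted p = 0.0285), while Ccng2 was lower at -0.50 (adjusted p = 0.0139). Neither relative of p53 tested was called in either fraction (limma). Of 11 genes of the integrated stress response, which can also induce Gdf15, 1 was higher on polysomes (Atf3, 0.67, adjusted p = 0.000911) and 2 were lower (Trib3, -0.29, and Vegfa, -0.20). The shares of all genes called there were 11.1% higher and 10.7% lower. Atf4 changed by -0.016 on polysomes (adjusted p = 0.962) and fell by 0.54 in subpolysomes (adjusted p = 0.0162), and Ddit3 changed by 0.28 (adjusted p = 0.182) and rose by 0.44 (adjusted p = 0.0345).

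Markers of fibroblasts and stellate cells moved with the shRNA beside these changes, while most tested leukocyte and endothelial markers were not called. For scale, 10.7% of all genes were called lower and 11.1% higher on polysomes, and 12.4% lower in subpolysomes. Each of 7 tested fibroblast and stellate cell markers was lower on polysomes of eIF6 shRNA cells, with a median of -2.73 (Col1a2 -3.53, Col1a1 -3.11, Pdgfrb -3.10, Acta2 -2.73), and 5 of 7 were lower in subpolysomes. Their summed normalized intensity was 157696 to 254669 on scramble polysomes and 18886 to 26245 with eIF6 shRNA, and 115712 to 124979 against 42890 to 58100 in subpolysomes, and Lum was not well above background on any array. Of 6 leukocyte markers, 2 were lower on polysomes (Csf1r -1.67 and Itgam -0.46, named after their values were seen), with sums of 787 to 887 against 543 to 738, whereas of 4 endothelial markers Pecam1 and Kdr were well above background on all 16 arrays, with neither called in either fraction, and Cdh5 and Tek on none. Among the hepatocyte markers Afp (1.26), Ttr (1.15) and Tat (0.91) were higher on polysomes and Gjb1 (-1.06) was lower, with sums of 339625 to 514935 against 374105 to 523876. The part of these shifts in the changes of p53 and its targets was not tested.

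**Figure D5:**
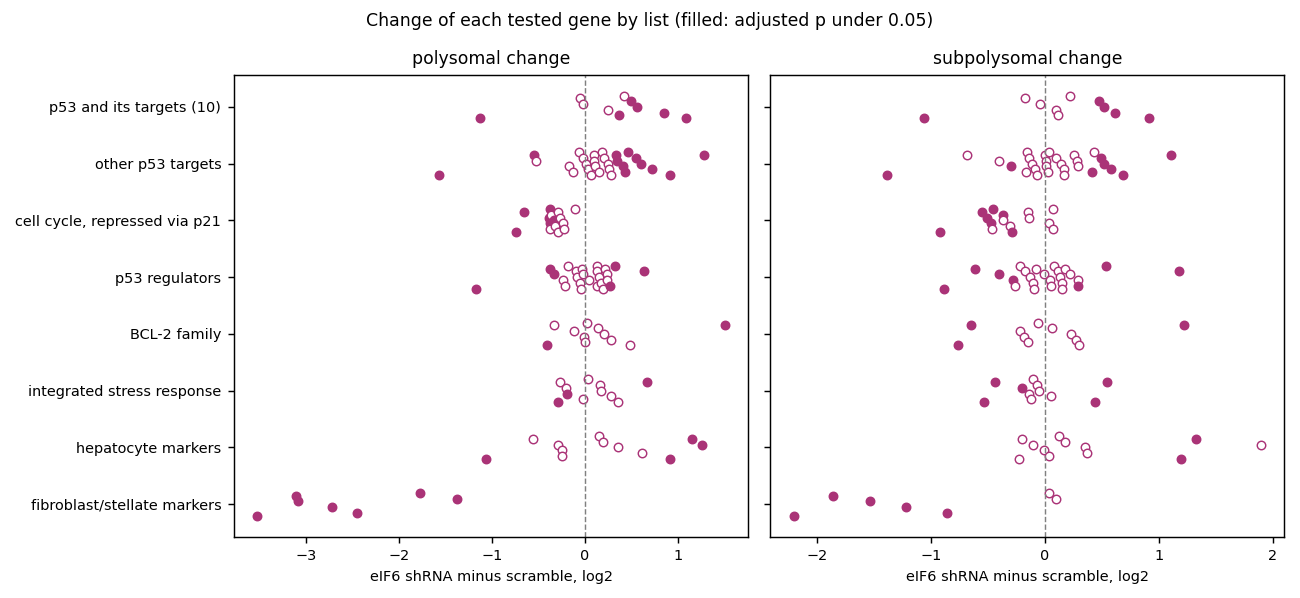
Change with eIF6 shRNA (log2) of each tested gene in 8 lists, on polysomes and in subpolysomes, with filled points where the adjusted p was under 0.05. The fibroblast and stellate markers reach -3.5 on polysomes, the cell cycle genes all lie left of 0 there, and the p53 targets lie on both sides of 0. With spike-in scaling, where the median of all genes is -0.47, all 15 cell cycle genes and 23 of the 29 other targets lie below 0 and none of the cell cycle genes is called. Of all 19365 genes, 1056 are called lower and 101 higher on polysomes there.

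Over the 16 arrays, as a description of arrays that share groups, the level of Mdm2 was most like those of Cnrip1 (Pearson r = 0.994), Chst2 (0.990) and Gdnf (0.990) among 13335 genes detected on all arrays. For Cdkn1a the closest genes were Tnfsf12, Lrrc51 and Ptp4a3 (each 0.990), and for Trp53 the probe NAP111903-1 (0.958), Suclg2 (0.957) and 4930430F08Rik (0.957).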

How the data were processed

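RNA from the polysomal and subpolysomal gradient fractions of AML12 cells was hybridised on 16 one-colour Agilent arrays (Cy3), 4 per group, on 4 slides that each held 1 array of each group. The deposited scanner files give 44397 spots per array with background-subtracted intensities, which the authors made with Agilent Feature Extraction (10.7.3.1 per the file headers, 10.7.7.1 in the submitters' processing notes), and probe positions on mm9. The authors also deposited a table of log2 values of the same arrays, which correlated with the scanner values at r = 0.9947 to 0.9997 and was used as an alternative only.

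Spots of a probe were averaged, control spots and outlier flags were left out (82 missing probe values), and log2 intensities were quantile normalized. A probe was kept if any group had 2 or more arrays on which it was well above background (25260 probes), and kept probes were averaged per gene. Group means were fitted with limma 3.58.1 in R 4.3.3 (with the data.table package, version 1.17.8), with Benjamini-Hochberg adjustment over 19365 genes and a threshold of 0.05. The scripts were tested on simulated data, and sequences and plots were made with Python 3.11.15, numpy 2.4.6 and matplotlib 3.10.9. Alternatives changed the scaling (75th percentile, or 7 spike-in probes), the background correction (normexp, offset 50), the filter, the probe rule and the blocks, or left out each array.

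The members and gene lists were chosen with earlier results of these data known. All 10 members were named, and from each list at most 4 called genes per comparison with the largest change among those well above background on all 16 arrays, with Mdm4, Rpl5, Rpl11, Atf4, Ddit3 and Eif6 named in any case. For Trp53, Mdm2 and Cdkn1a the 3 genes with the highest r were named. Arrays of a group correlated at r = 0.9894 to 0.9925 on average, and their number limits the precision. Microarray intensities carry no read depth.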

Additional observations from a re-analysis of the deposited data

Results flagged for a closer look

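In 40 combinations of a gene and a group of 4 arrays, the gap between an extreme array and its nearest neighbour was compared with the range of the group. Chance gives about 1 such group in 20, and 2 of 40 passed. The Trp53 level of scramble subpolysomal replicate 4 was 8.43, below the other 3 arrays at 8.79 to 8.87, and without it the subpolysomal change of Trp53 was 0.015. The Ccng1 level of scramble subpolysomal replicate 1 was 13.01, above the other 3 at 12.87 to 12.88.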

How the results depend on the processing

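The alternatives were run on every value of the 10 genes. Of 640 values under alternatives other than leaving out 1 array, 569 kept their direction and side of the threshold. The cause of the changes was not tested. Scaled to the spike-in probes, 0 of 10 genes were called lower and 0 higher on polysomes and likewise in subpolysomes. Of all 19365 genes, 1056 were called lower and 101 higher on polysomes on this scale, and 345 and 43 in subpolysomes. The polysomal changes of Ccng1 (-0.066), Bax (-0.057) and Bbc3 (-0.20), the subpolysomal changes of Trp53 (-0.17) and Bax (-0.057), and the efficiency differences of Cdkn1a (-0.16), Ccng1 (-0.073), Sesn1 (-0.031) and Gdf15 (-0.16) then changed sign. In polysomal over subpolysomal levels with spike-in scaling, 396 of all 19365 genes were called lower and 13411 higher in scramble cells. In eIF6 shRNA cells 494 were called lower and 11218 higher. Of the 10 genes, spike-in scaling left 0 lower and 5 higher in each. It turned Cdkn1a to 0.50 and 0.35 in scramble and eIF6 shRNA cells, Ccng1 to 1.00 and 0.93, Bax to 1.06 and 1.06, Bbc3 to 1.65 and 1.71, Sesn1 to 1.31 and 1.27, and Gdf15 to 0.97 and 0.81. Normalizing each fraction on its own left 0 lower and 10 higher in both, with the median of all genes at 1.38 and 1.41. Of all 19365 genes, this normalization called 899 lower and 15786 higher in scramble cells, and 840 and 15407 in eIF6 shRNA cells. A call of higher was thus the rule for all genes there. This normalization gave Cdkn1a 0.38 and 0.44, Ccng1 0.88 and 1.02, Bax 0.89 and 1.18, Bbc3 1.52 and 1.82, Sesn1 1.20 and 1.35, and Gdf15 0.84 and 0.91. In efficiency it called 1 of the 10 genes higher, Mdm2 at 0.42, where 130 of all 19365 genes were called higher and 341 lower. Scaling to the 75th percentile turned the subpolysomal change of Bbc3 (0.022), the efficiency difference of Mdm2 (0.096), its polysomal over subpolysomal level (-0.90 and -0.80) and that of Bbc3 in eIF6 shRNA cells (0.18). The brightest probe gave Cdkn1a 0.15 and 0.18 there. Normexp correction gave Cdkn1a an efficiency difference of -0.062. Without a detection filter 3 of the 10 genes were lower on polysomes than in subpolysomes of eIF6 shRNA cells. Of all 30214 genes, 5195 were lower in that setting. With 1 array left out, 3 to 5 of the 10 genes and 5156 to 5412 of all 19365 genes were lower in this comparison of fractions. Leaving out 1 array put Trp53 on polysomes between -0.30 and 0.14, Sesn1 between -0.056 and 0.0057, and Bbc3 in subpolysomes between -0.11 and 0.066. The efficiency difference lay between -0.41 and 0.020 for Trp53, -0.060 and 0.12 for Cdkn1a and -0.12 and 0.16 for Gdf15, and Bbc3 in eIF6 shRNA cells between -0.13 and 0.039. Without both polysomal replicates 4 (chosen after seeing the data), the polysomal change of Sesn1 was 0.020 and the efficiency difference of Gdf15 -0.071. Same-numbered arrays of 2 groups correlated in their deviations at r between -0.157 and 0.413, highest for the polysomal replicates 4 and then the polysomal replicates 1 (0.117), and since not every pair was over 0.1 the samples were taken to share only a number. With the slide as a block Trp53 between fractions in eIF6 shRNA cells was called (0.50, adjusted p = 0.0230), and no other member call changed. With the replicate block, 2003 genes were called lower and 2087 higher on polysomes, and of the member calls only that of Sesn1 between fractions in eIF6 shRNA cells was lost (-0.20, adjusted p = 0.0543).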

Other observations

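Replicate 4 stood at an edge of both polysomal groups for several of the genes. In scramble cells it was the lowest array for 7 of the 10 genes (Mdm2, Cdkn1a, Ccng1, Bax, Pmaip1, Trp53inp1 and Gdf15) and the highest for Trp53 and Sesn1. With eIF6 shRNA it was the lowest for 5 (Cdkn1a, Ccng1, Bax, Pmaip1 and Trp53inp1) and the highest for Trp53. The deviations of these 2 arrays from their group means correlated at r = 0.413 over all genes, as a description across genes, which are not independent replicates. Without both arrays, an alternative chosen after seeing the data, limma called the same 6 genes on polysomes, with Mdm2 at -1.17 (adjusted p = 1.59e-07), Cdkn1a at 0.54 (adjusted p = 0.00281) and Gdf15 at 0.44 (adjusted p = 0.0154). Of all 19365 genes, 2155 were called lower and 2385 higher on polysomes without these arrays.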
